A study of Mus musculus with 12 samples.

Results

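The 36 genes described here encode the sensors that detect double-stranded RNA in mammalian cells, the factors that pass the signal on, both subunits of the receptor for type I interferon, and antiviral genes that interferon switches on. They were chosen by name, and all 36 symbols were found among the 42450 genes of the deposited count table. Of these, 33 passed the filter on low counts that left 19410 genes for testing, while *Irf7*, *Ifit3* and *Usp18* did not. The question was whether transfection of siRNA, given once or repeatedly, or the siRNA against *Srrm2* in particular, raised their RNA in mouse embryonic stem cells (mESC).

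In most cell types, double-stranded RNA in the cytoplasm binds the helicases RIG-I (*Ddx58*) and MDA5 (*Ifih1*), which act through the adaptor MAVS and the kinase TBK1 on the transcription factors IRF3 and IRF7. These induce interferon beta, which binds IFNAR1 and IFNAR2 at the cell surface, and a complex that contains STAT2 and IRF9 then activates genes that carry an interferon-stimulated response element (ISRE). Pluripotent stem cells are known for a weak interferon response to RNA, and for expressing some antiviral effectors, such as the IFITM proteins, without interferon. siRNAs are short double-stranded RNAs and are therefore themselves candidate ligands of these sensors.

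All cells were wild-type E14tg2a.4, a single mESC line. By the paper's methods, the line was kept on gelatin in medium with serum and LIF. Before collection, cells were grown in serum-free ESGRO medium with LIF. In Srrm2-KD cells the siRNA, at 50 nM in a cationic lipid reagent, targeted *Srrm2*, and in Gl2-KD cells it targeted firefly luciferase (Gl2), which mESC do not carry. The cells collected at 24 h had 1 transfection, and the cells collected at 72 h had 2, since the same siRNA was given again at 24 h. The 4 groups have 3 libraries each, from experiments 1, 2 and 3, which gives 12 polyA+ libraries. Untransfected or mock-transfected cells were not analysed here, so a response common to both siRNAs at 24 h cannot be seen. Between 24 h and 72 h, the added transfection and the longer culture cannot be told apart. The paper's methods list 2 siRNA duplexes against *Srrm2* and 1 against Gl2. Between Srrm2-KD and Gl2-KD, the siRNA sequences and the loss of *Srrm2* RNA therefore cannot be told apart either.

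Totals per library ranged from 73.9 M to 153.3 M estimated counts. *Srrm2* itself was at 449 to 962 CPM (counts per 1e6 scaled counts of a library) in Gl2-KD and 154 to 517 CPM in Srrm2-KD libraries, with the Srrm2-KD library the lower one in each of the 6 pairs. Its log2 fold change was -1.22 ± 0.14 (SE) at 24 h (edgeR, adjusted p = 0.0663) and -1.16 ± 0.14 at 72 h (adjusted p = 0.0991). Srrm2-KD libraries of experiment 1 overlapped the Gl2-KD libraries of experiments 2 and 3. All 7 mESC markers were at 275 CPM or more in every library. Of the markers of cells that respond strongly to RNA, 4 of 6 for fibroblasts and 6 of 6 for macrophages and blood cells were below 1 CPM in every library, and the macrophage and blood cell markers summed to at most 0.386 CPM. *Thy1*, from the fibroblast list, reached 22.9 CPM.

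Members differed widely in level. Levels between genes are given in CPM per kb of exon, averaged over the 12 libraries, since a long gene collects more reads. At least 1 CPM per kb was reached by 17 of 36 members, compared to 57% of all genes tested. Another 11 members were between 0.1 and 1, and 8 were below 0.1. The plot of all members by library shows these tiers, with the points of the 4 groups mixed at most genes.

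Among the sensors, *Ddx58* was the highest at 11.05 CPM per kb, above 78.3% of all genes tested. *Mavs*, the adaptor, was at 8.23 and *Eif2ak2*, which encodes the RNA-activated kinase PKR, at 4.02 CPM per kb. *Zbp1*, a sensor of Z-form nucleic acids that can trigger necroptosis, followed at 0.609 and *Dhx58*, the regulatory helicase LGP2, at 0.278 CPM per kb. The endosomal receptor *Tlr3* was at 0.0545 CPM per kb. *Ifih1* was nearly absent at 0.0079 CPM per kb, with 1 to 18 counts in a library, and only 0.342% of the genes tested lay below it. Of the helicases that sense RNA in the cytoplasm, these cells therefore held abundant RNA for RIG-I and almost none for MDA5.

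Receptor and signalling RNA was present. *Ifnar1* was at 8.45 and *Ifnar2* at 2.86 CPM per kb. *Stat2* was at 6.78, *Irf9* at 3.32, *Irf3* at 2.34 and *Irf1*, an interferon-inducible activator, at 10.5 CPM per kb. *Irf7*, which amplifies the interferon response, was at 0.0053 CPM per kb. *Irf7* had 1, 13 and 2 counts in Gl2-KD at 24 h (experiments 1, 2 and 3 in this order), 2, 7 and 1 in Srrm2-KD at 24 h, 3, 0 and 0 in Gl2-KD at 72 h and 0, 1 and 0 in Srrm2-KD at 72 h. A count of 0 allows up to 3 counts, which is 0.0185 to 0.0409 CPM depending on the depth of the library; this limit covers counting error only. *Irf7* was thus near its limit of detection in every group, and no fold change is given for it.

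The antiviral effectors held both the highest and some of the lowest values. *Ifitm2*, *Ifitm1* and *Ifitm3*, which block virus entry at membranes, were at 515, 357 and 169 CPM per kb and lay above 99.4%, 99.2% and 98.5% of the genes tested. *Bst2*, the tetherin that holds budding virus at the cell surface, was at 81.8 CPM per kb. *Adar*, which edits double-stranded RNA and thereby hides it from sensors, was at 7.39, *Oas1a*, an oligoadenylate synthetase, at 6.20 and the ADP-ribosyltransferase *Parp14* at 1.05 CPM per kb. Over the libraries, *Parp14* ranged from 0.309 to 2.10 CPM per kb, and its place in the upper tier rests on experiment 1. *Oas2* (0.921), *Oas3* (0.866), *Oasl1* (0.546), *Ifit2* (0.443), *Ifit1* (0.232), the exonuclease *Isg20* (0.191) and *Rsad2* (0.1002 CPM per kb) formed the middle tier. *Mx1* and *Mx2*, dynamin-like GTPases that are strongly induced by interferon, were at 0.0316 and 0.0281 CPM per kb, and *Ifit3* had 38 counts in all 12 libraries together.

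In the ISG15 system, the ligase *Trim25*, which also modifies RIG-I, was at 26.98 CPM per kb, while *Isg15* itself was at 0.185, the ligase *Herc6* at 0.162 and the ISG15 protease *Usp18* at 0.0061 CPM per kb, with 27 counts in all libraries. The interferon-induced chemokine *Cxcl10* was at 0.0729 CPM per kb, with 3 to 45 counts in a library. *Isg15* had 0, 28 and 20 counts in Gl2-KD at 24 h, 4, 25 and 6 in Srrm2-KD at 24 h, 6, 23 and 31 in Gl2-KD at 72 h and 4, 19 and 20 in Srrm2-KD at 72 h. These correspond to 0 to 0.273 CPM, and the 4 groups overlapped. *Isg15*, among the most strongly interferon-induced genes in many cell types, thus stayed below 0.3 CPM in every library.

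The interferons themselves were nearly absent. Of 20 interferon genes examined (beta, alpha, epsilon, kappa, gamma and lambda), 16 had 0 counts in all 12 libraries, *Ifnb1* among them, and 0 passed the filter. The 20 genes together collected 23 counts in the 12 libraries, with at most 6 for a gene in a library. For *Ifnb1*, the floor of 3 counts over all libraries is 0.00212 CPM.

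Members at low and at high levels carried ISRE letters at their promoter. A RefSeq window of 250 bases before to 50 bases after the start (GRCm38.p6) was matched for 29 of the 36 members. The ISRE letters, GAAA, any 2 bases and again GAAA, searched on both strands, were found for 14 of the 29 (48.3%), compared to 3.99% of all 27025 genes with a window. The STAT site TTCNNNGAA was found for 10 of 29 (34.5%) and 9.55% of all genes. Stretches around the ISRE letters are shown for 3 members below 1 CPM per kb and 3 above it, to show that low and high members carry them; capitals mark the matched letters, which overlap in *Isg15*, *Oas1a* and *Bst2*, and each stretch is written 5′ to 3′ along the gene's own strand. On genes whose capitals read TTTC, the match lies on the opposite strand.
Isg15 (0.185 CPM per kb; chr4:156200845-156200926, minus strand): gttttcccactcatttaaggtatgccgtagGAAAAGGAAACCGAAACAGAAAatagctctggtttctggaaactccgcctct
Ifit1 (0.232 CPM per kb; chr19:34640755-34640843, plus strand): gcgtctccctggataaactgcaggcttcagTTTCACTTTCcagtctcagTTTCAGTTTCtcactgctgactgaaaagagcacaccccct
Ifit3 (0.0136 CPM per kb; chr19:34583343-34583446, plus strand): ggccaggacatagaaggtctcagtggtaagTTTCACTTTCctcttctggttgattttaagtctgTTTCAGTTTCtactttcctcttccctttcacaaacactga
Ifitm2 (515 CPM per kb; chr7:140955968-140956037, minus strand): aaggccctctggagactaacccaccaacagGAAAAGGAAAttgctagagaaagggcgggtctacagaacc
Oas1a (6.20 CPM per kb; chr5:120907526-120907575, minus strand): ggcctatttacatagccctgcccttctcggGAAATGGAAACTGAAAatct
Bst2 (81.8 CPM per kb; chr8:71537557-71537632, minus strand): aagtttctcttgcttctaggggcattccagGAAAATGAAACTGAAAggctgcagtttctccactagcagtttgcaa

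The ISRE letters thus stood at members as low as *Isg15* (0.185 CPM per kb) and *Ifit3* (0.0136) and as high as *Ifitm2* (515) and *Bst2* (81.8). The members shown were picked as carriers of the letters. Whether members with and without the letters differed in level was not tested. A match is a description of the letters and not of binding.

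The comparison of Gl2-KD at 72 h with 24 h asks whether control cells that were transfected again and kept longer had higher levels. Of the 33 members tested, 0 were called higher and 1, *Parp14*, was called lower (edgeR quasi-likelihood test, Benjamini-Hochberg adjusted p below 0.05), when 1.45% of all genes tested were called in either direction. The median log2 fold change was -0.06 for the members and 0.02 for all genes. In 3 of 3 experiments, 1 member was higher and 8 were lower at 72 h, against 20.2% and 16.2% of all genes. At an unadjusted p below 0.05, 2 members were higher (*Bst2*, *Ifnar2*) and 5 lower (*Parp14*, *Ddx58*, *Trim25*, *Rsad2*, *Oas1a*), against 9.59% and 7.21% of all genes. DESeq2 called *Parp14* and *Ddx58* lower and *Bst2* higher, against 6.89% of all genes, and limma-voom called *Parp14*, against 2.48%. Groups did not overlap for 1 member, *Herc6*, which was lower at 72 h, against 3.91% of all genes higher and 3.36% lower. For the 17 members at 1 CPM per kb or more, the 95% interval of the change ended below 2-fold up in all 17 and below 1.5-fold up in 13, the exceptions being *Bst2*, *Ifnar2*, *Irf1* and *Irf3*. The 16 lower members left more room: in 10 of them the interval ended below 2-fold up, and for *Tlr3* it reached 8.72-fold. These intervals are not adjusted for the number of genes. In RNA from whole cultures, fewer cells that express a gene and less RNA per cell cannot be told apart.

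*Parp14*, a macro-domain ADP-ribosyltransferase induced by interferon (chr16:35832874-35871544, minus strand, GRCm38), fell in Gl2-KD. It was at 18.8, 9.72 and 4.55 CPM in experiments 1, 2 and 3 at 24 h and at 10.5, 4.77 and 2.88 CPM at 72 h. Each experiment was lower at 72 h, although the groups overlapped, because the experiments differed from each other by more than the time points did. The log2 fold change was -0.85 ± 0.14 (edgeR, adjusted p = 0.0245), a fold of 0.556 with a 95% interval of 0.447 to 0.693. The call was lost without the experiment as a block (edgeR, adjusted p = 1), in a fit of the 6 Gl2-KD libraries alone (adjusted p = 0.0774) and when each combination of experiment and siRNA was its own block (adjusted p = 0.0812). It was also lost without the Gl2-KD library at 24 h of experiment 1 (-0.78, adjusted p = 0.112) or 2 (-0.81, adjusted p = 0.160), the Gl2-KD library at 72 h of experiment 2 (-0.76, adjusted p = 0.166) or 3 (-0.86, adjusted p = 0.0821), or the Srrm2-KD library at 24 h of experiment 2 (-0.85, adjusted p = 0.0501), all by edgeR. In Srrm2-KD, *Parp14* was at 19.6, 12.3 and 6.89 CPM at 24 h and at 14.9, 8.13 and 4.68 CPM at 72 h, again lower in each experiment, with a log2 fold change of -0.52 ± 0.14 (edgeR, adjusted p = 0.122). The difference between the siRNAs in this change was 0.32 ± 0.20 on the log2 scale and was not called (adjusted p = 1).

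*Ddx58* had values in the same direction. It was at 111, 86.0 and 61.9 CPM in Gl2-KD at 24 h and at 94.0, 62.8 and 36.7 CPM at 72 h. In Srrm2-KD it was at 109, 101.1 and 74.4 CPM at 24 h and at 84.1, 64.4 and 48.4 CPM at 72 h. All 6 pairs of libraries were lower at 72 h, with overlap between the groups. The log2 fold changes were -0.47 ± 0.13 in Gl2-KD (edgeR, adjusted p = 0.0935) and -0.56 ± 0.13 in Srrm2-KD (adjusted p = 0.0871), neither of which passed by edgeR. DESeq2 gave adjusted p = 0.0172 and 0.00609, where it called 6.89% and 5.47% of all genes.

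*Bst2* had values in the other direction. It was at 30.2, 43.7 and 105 CPM in Gl2-KD at 24 h and at 35.0, 84.5 and 149 CPM at 72 h. In Srrm2-KD it was at 32.6, 44.7 and 95.2 CPM at 24 h and at 33.5, 91.9 and 141 CPM at 72 h. All 6 pairs were higher at 72 h, but the pairs of experiment 1 were nearly level. The log2 fold change was 0.55 ± 0.17 with either siRNA, and did not pass (edgeR, adjusted p = 0.139 in Gl2-KD and 0.161 in Srrm2-KD).

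**Figure D1:**
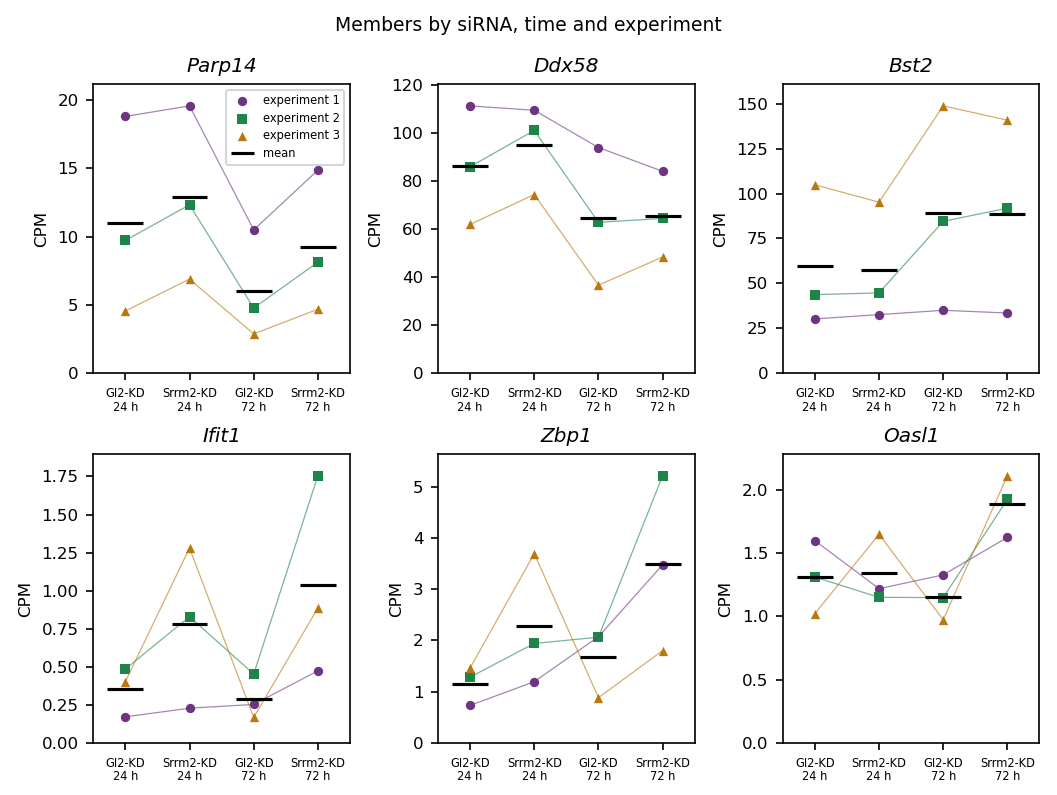
CPM of 6 members in each library by siRNA and time, with 1 symbol and line for each experiment and a black bar for the mean of 3 libraries; each axis starts at 0. *Parp14* and *Ddx58* were lower at 72 h than at 24 h in every experiment with either siRNA, *Bst2* was higher, and *Ifit1* and *Zbp1* were higher in Srrm2-KD than in Gl2-KD in every experiment at both times.

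The same comparison in Srrm2-KD cells called 0 members, against 0.551% of all genes. At an unadjusted p below 0.05, 1 member was higher (*Bst2*) and 7 were lower, against 7.72% and 8.54% of all genes; DESeq2 called 4 members, *Parp14*, *Ddx58* and *Oas1a* lower and *Bst2* higher, against 5.47% of all genes, and limma-voom called 0, against 1.33%. In 3 of 3 experiments, 3 members were higher and 14 lower, against 16.2% and 16.6% of all genes, and groups did not overlap for *Rsad2* and *Oas2*, both lower at 72 h, against 3.58% of all genes higher and 3.9% lower. The median log2 fold change was -0.08 for the members and 0.00 for all genes.

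*Oas1a* was at 8.63, 17.1 and 16.6 CPM in Gl2-KD at 24 h, 8.63, 9.27 and 13.1 CPM at 72 h, 10.8, 15.6 and 14.5 CPM in Srrm2-KD at 24 h and 5.95, 8.46 and 11.7 CPM at 72 h. Its log2 fold change over time was -0.41 ± 0.17 in Gl2-KD and -0.68 ± 0.17 in Srrm2-KD (edgeR, adjusted p = 0.265 and 0.107), with overlapping groups. Of its 31-base words in annotated transcripts, 68.7% also stand in *Oas1g*, so the split of reads between these neighbours is uncertain. *Oas1g* had similar values, with log2 fold changes of -0.40 ± 0.18 and -0.65 ± 0.18 (edgeR, adjusted p = 0.294 and 0.121).

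*Rsad2*, which encodes the antiviral enzyme viperin, was at 0.811, 0.442 and 0.365 CPM in Gl2-KD at 24 h, 0.367, 0.184 and 0.297 CPM at 72 h, 0.653, 0.459 and 0.656 CPM in Srrm2-KD at 24 h and 0.455, 0.317 and 0.205 CPM at 72 h. It was lower at 72 h in all 6 pairs, with 15 to 106 counts in a library. The log2 fold changes were -0.90 ± 0.35 and -0.89 ± 0.35 (edgeR, adjusted p = 0.221 and 0.246). *Trim25* was between 100.7 and 216 CPM, with log2 fold changes over time of -0.30 ± 0.11 and -0.28 ± 0.11 (edgeR, adjusted p = 0.188 and 0.230), and *Ifnar2* between 6.65 and 16.4 CPM, with 0.41 ± 0.18 and 0.16 ± 0.18 (adjusted p = 0.279 and 0.701). Values for *Rsad2*, *Trim25* and *Ifnar2* are given because their unadjusted p was below 0.05 in at least 1 comparison, and were chosen after they were seen.

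Among the sensors and transducers, *Mavs*, *Eif2ak2* and *Stat2* are given whatever their values. *Mavs* was at 29.3, 33.6 and 23.4 CPM in Gl2-KD at 24 h, 28.9, 31.3 and 21.5 CPM in Srrm2-KD at 24 h, 32.1, 29.5 and 22.5 CPM in Gl2-KD at 72 h and 33.4, 23.9 and 20.6 CPM in Srrm2-KD at 72 h. *Eif2ak2* was at 27.2, 17.7 and 19.0 CPM in Gl2-KD at 24 h, 24.3, 17.4 and 19.8 CPM in Srrm2-KD at 24 h, 24.3, 18.6 and 18.2 CPM in Gl2-KD at 72 h and 23.5, 17.3 and 19.2 CPM in Srrm2-KD at 72 h. For both genes, the 4 groups overlapped, and the log2 fold changes lay between -0.11 and -0.02 in all 4 comparisons. *Stat2* was at 39.6, 31.1 and 43.03 CPM in Gl2-KD at 24 h, 38.6, 31.4 and 48.1 CPM in Srrm2-KD at 24 h, 35.0, 39.6 and 55.0 CPM in Gl2-KD at 72 h and 37.7, 34.6 and 48.3 CPM in Srrm2-KD at 72 h. Its log2 fold changes lay between -0.10 and 0.18, again with overlapping groups. For all 3 genes, the 95% interval ended below 1.5-fold up in each of the 4 comparisons.

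*Ifih1* gave too few counts for such a statement. It had 4, 10 and 9 counts in Gl2-KD at 24 h, 8, 2 and 2 in Srrm2-KD at 24 h, 4, 9 and 13 in Gl2-KD at 72 h and 18, 12 and 1 in Srrm2-KD at 72 h. The groups overlapped, and the standard errors of its log2 fold changes in the 4 comparisons of groups were 0.84 to 0.92.

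**Figure D2:**
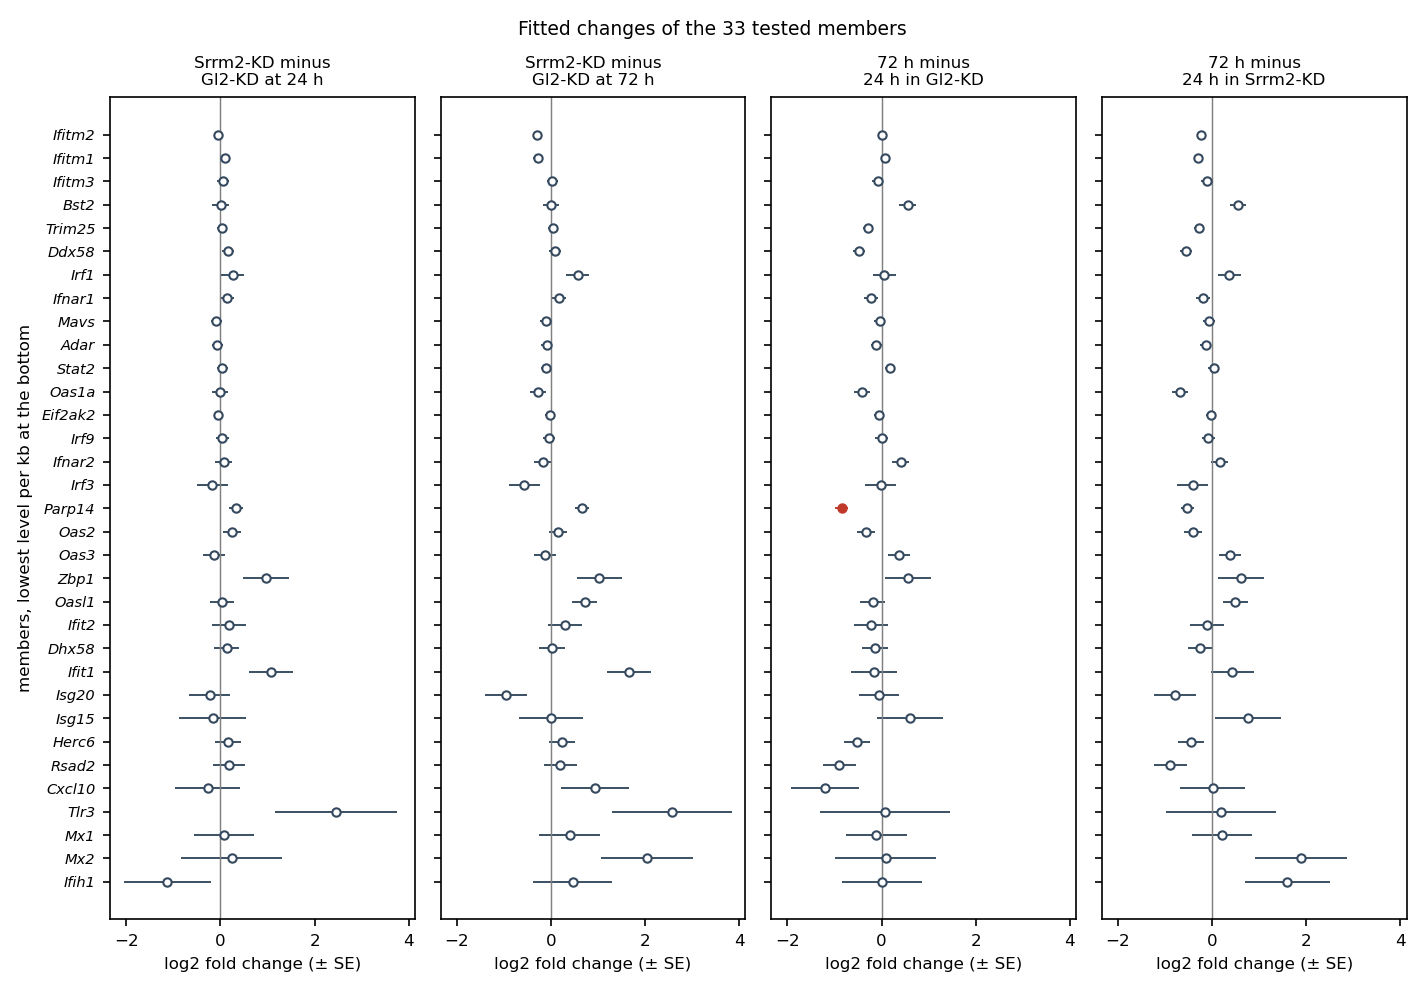
Fitted log2 fold change with its standard error for the 33 tested members in 4 comparisons, ordered by level with the highest at the top; the filled red point, *Parp14* in Gl2-KD over time, is the only one with an edgeR adjusted p below 0.05. Error bars widen towards the bottom, where genes such as *Tlr3*, *Mx2* and *Ifih1* had few counts.

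The second pair of comparisons, Srrm2-KD against Gl2-KD at each time, asks whether the siRNA against *Srrm2* raised the members more than the control siRNA did. No member passed the test at either time, and neither did any other gene, *Srrm2* itself included. The absence of a call therefore does not show that a member was unchanged. In the authors' own edgeR fit, with the processing day as a covariate, *Srrm2* was called lower at both times. The members with the smallest p at 72 h were *Parp14*, *Ifit1* and *Ifitm2*, of which *Parp14* and *Ifit1* were higher in Srrm2-KD and *Ifitm2* lower. At 24 h, 0 members were called, against 0% of all genes; at an unadjusted p below 0.05, 2 were higher (*Parp14*, *Ifit1*) and 0 lower, against 1.15% and 1.47% of all genes, and DESeq2 and limma-voom called 0 (0.129% and 0.0103% of all genes). The median log2 fold change was 0.05 for the members and 0.01 for all genes. In 3 of 3 experiments, 8 members were higher and 2 lower in Srrm2-KD, against 17.3% and 15.4% of all genes. Groups did not overlap for *Tlr3* and *Oas2*, both higher, against 1.89% of all genes higher and 1.55% lower. For 15 of the 17 members at 1 CPM per kb or more, the 95% interval ended below 1.5-fold up, the exceptions being *Parp14* (1.56-fold) and *Irf1* (1.75-fold). Among the 16 lower members it ended below 2-fold up in 9.

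At 72 h, 0 members were called by edgeR, again against 0% of all genes. At an unadjusted p below 0.05, 4 members were higher (*Parp14*, *Ifit1*, *Oasl1*, *Irf1*) and 2 lower (*Ifitm2*, *Ifitm1*), against 5.01% and 7.86% of all genes. DESeq2 called 2 members, *Parp14* and *Ifit1*, both higher, against 2.79% of all genes. When each combination of experiment and time was its own block, edgeR called 4 members, *Irf1*, *Zbp1*, *Parp14* and *Ifit1*, all higher, against 3.73% of all genes, and a fit of the 6 libraries at 72 h called *Zbp1*, against 1.78%. limma-voom called 0, against 0.0206%. In 3 of 3 experiments, 7 members were higher and 5 lower, against 18.8% and 23.1%, and groups did not overlap for *Ifit1*, *Oasl1* and *Tlr3*, all higher, against 2.99% of all genes higher and 3.67% lower. The median was 0.04 for the members and -0.02 for all genes. Of the 17 members at 1 CPM per kb or more, 15 had an interval that ended below 1.5-fold up, and *Parp14* and *Irf1* reached 1.96-fold and 2.16-fold. Among the 16 lower members it ended below 2-fold up in 6, and for *Tlr3* it reached 41.25-fold. Because Gl2-KD at 72 h enters both this comparison and the one over time, a low value in those 3 libraries lowers one and raises the other: *Parp14* was 0.65 ± 0.14 higher in Srrm2-KD at 72 h on the log2 scale (edgeR, adjusted p = 0.144; DESeq2, adjusted p = 0.00178) and 0.33 ± 0.14 higher at 24 h (edgeR, adjusted p = 1).

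*Ifit1*, which binds viral RNA that lacks host cap methylation, was low throughout. It was at 0.171, 0.485 and 0.402 CPM in Gl2-KD at 24 h and at 0.228, 0.829 and 1.28 CPM in Srrm2-KD at 24 h. At 72 h it was at 0.253, 0.452 and 0.167 CPM in Gl2-KD and at 0.473, 1.76 and 0.887 CPM in Srrm2-KD, which rests on 22 to 133 counts in a library. Srrm2-KD was higher in each experiment at both times, and at 72 h the groups did not overlap. The log2 fold change was 1.07 ± 0.47 at 24 h (edgeR, adjusted p = 1) and 1.66 ± 0.47 at 72 h (edgeR, adjusted p = 0.205; DESeq2, adjusted p = 0.0338). Even the highest library remained below 2 CPM, and *Ifit1* shared 9.16% of its 31-base words with the related *Ifit1bl2*.

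*Zbp1* and *Oasl1* had values in the same direction at 72 h. *Zbp1* was at 0.731, 1.28 and 1.46 CPM in Gl2-KD at 24 h, 1.20, 1.94 and 3.69 CPM in Srrm2-KD at 24 h, 2.07, 2.06 and 0.883 CPM in Gl2-KD at 72 h and 3.48, 5.21 and 1.80 CPM in Srrm2-KD at 72 h. Srrm2-KD was higher in each experiment at both times, with overlap, and the log2 fold changes of 0.98 ± 0.49 and 1.03 ± 0.48 did not pass (edgeR, adjusted p = 1 and 0.413). *Oasl1*, an OAS-like protein without synthetase activity, was at 1.60, 1.31 and 1.02 CPM in Gl2-KD at 24 h, 1.22, 1.15 and 1.65 CPM in Srrm2-KD at 24 h, 1.33, 1.15 and 0.974 CPM in Gl2-KD at 72 h and 1.63, 1.93 and 2.11 CPM in Srrm2-KD at 72 h. The 3 Srrm2-KD libraries at 72 h lay above the 3 Gl2-KD libraries, with a log2 fold change of 0.72 ± 0.26 (edgeR, adjusted p = 0.295).

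*Irf1* was at 25.3, 39.2 and 39.6 CPM in Gl2-KD at 24 h, 26.7, 42.9 and 55.8 CPM in Srrm2-KD at 24 h, 36.5, 45.8 and 24.3 CPM in Gl2-KD at 72 h and 40.5, 75.5 and 47.1 CPM in Srrm2-KD at 72 h. It was higher in Srrm2-KD in each experiment at both times, with overlap, by log2 fold changes of 0.26 ± 0.25 and 0.57 ± 0.25 (edgeR, adjusted p = 1 and 0.370). *Tlr3* counts were 0, 14 and 13 in Gl2-KD at 24 h, 22, 55 and 66 in Srrm2-KD at 24 h, 39, 0 and 0 in Gl2-KD at 72 h and 118, 34 and 30 in Srrm2-KD at 72 h. In CPM, *Tlr3* did not exceed 0.318 in Gl2-KD and was between 0.136 and 0.735 in Srrm2-KD, and the groups did not overlap at either time. Its fitted log2 fold changes, 2.45 ± 1.30 and 2.56 ± 1.28, rest partly on libraries at 0 counts and did not pass (edgeR, adjusted p = 1 and 0.461). These 2 members are described in every library after their values were seen.

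Of the 3 abundant IFITM genes, *Ifitm1* and *Ifitm2* had negative log2 fold changes upon Srrm2-KD at 72 h, which did not pass, and *Ifitm3* was near 0. *Ifitm1* was at 191, 455 and 553 CPM in Gl2-KD at 24 h, 240, 456 and 540 CPM in Srrm2-KD at 24 h, 228, 466 and 542 CPM in Gl2-KD at 72 h and 179, 418 and 425 CPM in Srrm2-KD at 72 h. *Ifitm2* was at 285, 400 and 389 CPM, 307, 368 and 349 CPM, 303, 372 and 404 CPM and 258, 308 and 309 CPM in the same groups. In each experiment, both were lower in the Srrm2-KD library at 72 h, with overlapping groups, by log2 fold changes of -0.28 ± 0.09 and -0.30 ± 0.09 (edgeR, adjusted p = 0.265 and 0.205). *Ifitm3*, at 70.9, 164 and 116 CPM, 73.7, 160 and 130 CPM, 73.7, 118 and 130 CPM and 66.7, 152 and 121 CPM in these groups, had a log2 fold change of 0.03 ± 0.12 at 72 h, with overlap. Of the 31-base words of *Ifitm2*, 55.5% also stand in transcripts of other genes, compared to 11.6% for *Ifitm1* and 20.5% for *Ifitm3*.

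The effect of the *Srrm2* siRNA was also compared between the times. Of the 33 members, 0 were called in this test of the difference, against 0% of all genes, and 1 had an unadjusted p below 0.05, against 1.64%. It was *Ifitm1*, whose log2 fold change upon Srrm2-KD was 0.10 at 24 h and -0.28 at 72 h, a difference of -0.38 ± 0.13 (edgeR, adjusted p = 1). DESeq2 called 0 members, against 0.0103% of all genes, and limma-voom 0, against 0%. The median difference was 0.01 for the members and -0.02 for all genes.

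Experiment 1 lay apart from the others for 10 of the 33 tested members, no more often than among all genes. In experiment 1, 7 members were lower in all 4 libraries than in the 8 libraries of experiments 2 and 3 (*Dhx58*, *Isg15*, *Ifitm1*, *Ifitm2*, *Ifitm3*, *Bst2* and *Ifnar2*), and 3 were higher (*Eif2ak2*, *Adar* and *Trim25*). Of all genes tested, 13.7% were lower and 16.7% higher in this way, so the levels that follow describe these members and do not set them apart. *Ifitm1* averaged 210 CPM in experiment 1 and 482 CPM in the others, *Bst2* 32.8 and 94.3 CPM, and *Ifitm3* 71.3 and 136 CPM. *Trim25* averaged 205 CPM in experiment 1 and 130 CPM in the others, and *Adar* 70.2 and 54.9 CPM. *Parp14* overlapped, with means of 15.9 and 6.74 CPM. *Srrm2* was also higher in experiment 1 than in experiments 2 and 3 within each group. The sources used here do not say how experiment 1 differed, and its part in these levels was not tested beyond the block in the fit.

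**Figure D3:**
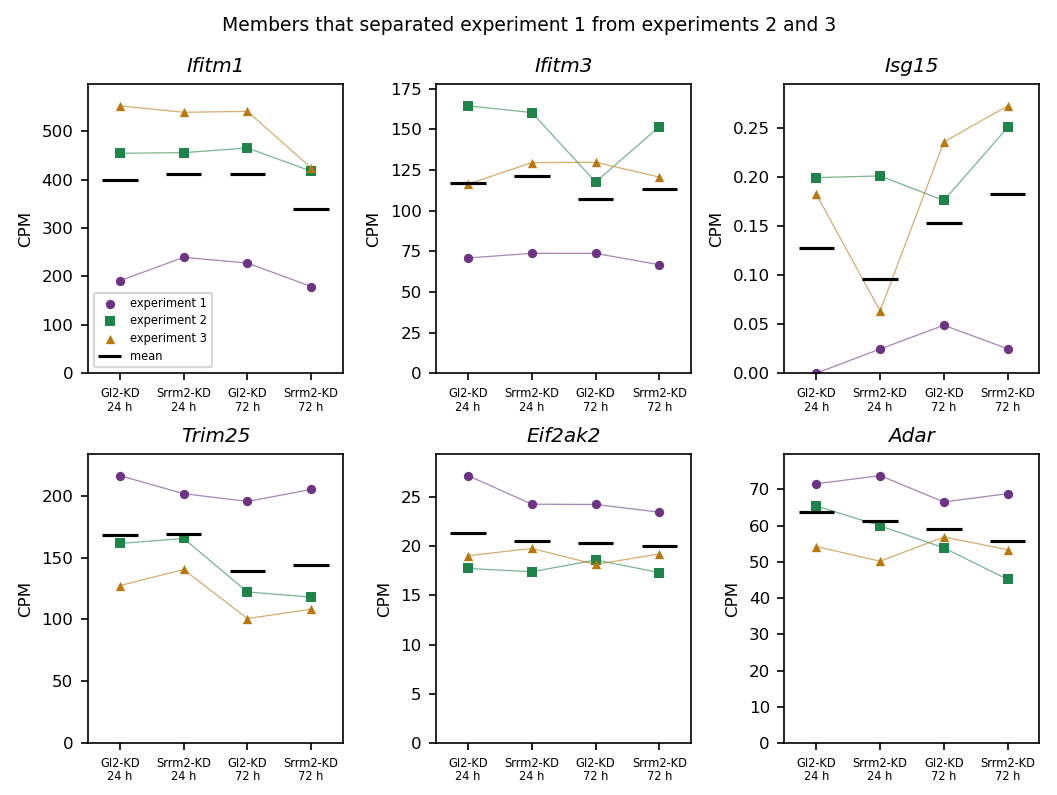
CPM of 6 members in each library by siRNA and time, with 1 symbol and line for each experiment and a black bar for the mean of 3 libraries; each axis starts at 0. Experiment 1 lies below the others for *Ifitm1*, *Ifitm3* and *Isg15* and above them for *Trim25*, *Eif2ak2* and *Adar*, in all 4 groups.

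Other genes of the pathway, taken from lists chosen by function, also gave few calls. Of 26 further sensing and signalling genes, 13 were at 1 CPM per kb or more, among them *Jak1*, *Tyk2*, *Tbk1* and *Traf3*. *Tyk2* reached this mean through experiments 2 and 3 alone, and was at 0 to 0.211 CPM per kb in experiment 1. Another 8 of the 26 were below 0.1, among them *Tmem173* (STING), *Irf5* and the endosomal receptors *Tlr7*, *Tlr8* and *Tlr9*. Of the 21 that passed the filter, edgeR called 1, lower in Gl2-KD over time, where 1.45% of all genes were called. This was *Socs1*, an interferon-induced inhibitor of JAK kinases, at 0.594, 1.33 and 0.612 CPM at 24 h and 0.188, 0.360 and 0.114 CPM at 72 h in experiments 1, 2 and 3, which are groups that did not overlap. Its log2 fold change was -1.93 ± 0.40 in Gl2-KD (edgeR, adjusted p = 0.0488) and -1.50 ± 0.40 in Srrm2-KD (adjusted p = 0.120), where it was at 0.598, 1.57 and 0.783 CPM at 24 h and 0.181, 0.317 and 0.477 CPM at 72 h. *Ripk3*, the kinase through which ZBP1 signals necroptosis, had log2 fold changes over time of -0.67 ± 0.17 and -0.73 ± 0.17 without passing (edgeR, adjusted p = 0.0769 and 0.0879), and *Ticam1*, the adaptor of TLR3, of -0.24 ± 0.20 and -0.52 ± 0.20 (adjusted p = 0.613 and 0.240).

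Of 48 further interferon-stimulated genes, 18 were at 1 CPM per kb or more and 20 below 0.1, and 41 passed the filter. Over time in Gl2-KD, edgeR called 0 higher and 1 lower, against 1.45% of all genes. In 3 of 3 experiments, 7 of the 41 were higher and 5 lower, against 20.2% and 16.2% of all genes. At an unadjusted p below 0.05 (edgeR), 4 were higher and 5 lower, against 9.59% and 7.21%. Groups did not overlap for 3 genes, all higher, against 3.91% of all genes higher and 3.36% lower. The gene called lower was *Parp9*, at 13.8, 12.4 and 7.22 CPM at 24 h and 8.75, 5.69 and 4.02 CPM at 72 h in experiments 1, 2 and 3 (log2 fold change -0.87 ± 0.17, edgeR adjusted p = 0.0410). *Parp9* lies near *Parp14* on chromosome 16 (chr16:35938470-35972605, plus strand) and its start overlaps that of *Dtx3l* on the minus strand, which encodes its binding partner. Of its 31-base words, 8.54% also stand in *Dtx3l*, which is named here after its values were seen. *Dtx3l* was at 17.4, 10.9 and 5.74 CPM at 24 h and 11.5, 4.78 and 2.13 CPM at 72 h (log2 fold change -1.04 ± 0.24, edgeR adjusted p = 0.0642). These genes, like *Parp14*, were lower at 72 h in 3 of 3 experiments in Gl2-KD. *Parp9* and *Socs1* each passed in 11 of 25 settings tried for this comparison. In Srrm2-KD over time, edgeR called 0 of the 41, against 0.551% of all genes. There, 8 were higher and 7 lower in 3 of 3 experiments, against 16.2% and 16.6% of all genes. The median log2 fold change was 0.09, compared to 0.00 for all genes.

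Between the siRNAs at 24 h, edgeR called 0 of these 41 genes, against 0% of all genes. There, 27 had a positive log2 fold change, compared to 9950 of 19410 genes. The median at 24 h was 0.12, compared to 0.01 for all genes. In 3 of 3 experiments, 11 were higher and 5 lower at 24 h, against 17.3% and 15.4% of all genes. Between the siRNAs at 72 h, 27 of the 41 had a positive log2 fold change, compared to 9292 of 19410 genes. The median was 0.22, and 0 were called by edgeR, compared to a median of -0.02 and 0 called among all genes. In 3 of 3 experiments, 15 of the 41 were higher and 6 lower, against 18.8% and 23.1% of all genes. Groups did not overlap for 2 of the 41 that were higher and 4 that were lower, against 2.99% and 3.67% of all genes. At an unadjusted p below 0.05 (edgeR), 6 of the 41 were higher and 2 lower, against 5.01% and 7.86% of all genes. DESeq2 called 2.79% of all genes in this comparison, and its number among the 41 is not given here. *Ddx60*, a helicase induced by interferon, was at 0.506, 0.329 and 0.883 CPM in Gl2-KD and 1.18, 2.36 and 2.80 CPM in Srrm2-KD at 72 h, groups that did not overlap (log2 fold change 2.03 ± 0.41; edgeR, adjusted p = 0.138; DESeq2, adjusted p = 0.00049). At 24 h it was at 0.800, 0.264 and 0.858 CPM in Gl2-KD and 1.32, 0.628 and 2.49 CPM in Srrm2-KD. *Igtp*, an immunity-related GTPase, was at 0.603, 1.51 and 3.32 CPM in Gl2-KD and 1.71, 5.90 and 5.28 CPM in Srrm2-KD at 72 h, with overlap (log2 fold change 1.40 ± 0.30; edgeR, adjusted p = 0.144; DESeq2, adjusted p = 0.000897), and 15.9% of its 31-base words also stand in *Irgm2*. *Tapbp* (tapasin), which helps to load peptides on MHC class I, had the next smallest p and was lower, with means of 12.8 CPM in Gl2-KD and 8.24 CPM in Srrm2-KD and no overlap (log2 fold change -0.65 ± 0.16; edgeR, adjusted p = 0.153; DESeq2, adjusted p = 0.0049); it is named after its values were seen.

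**Figure D4:**
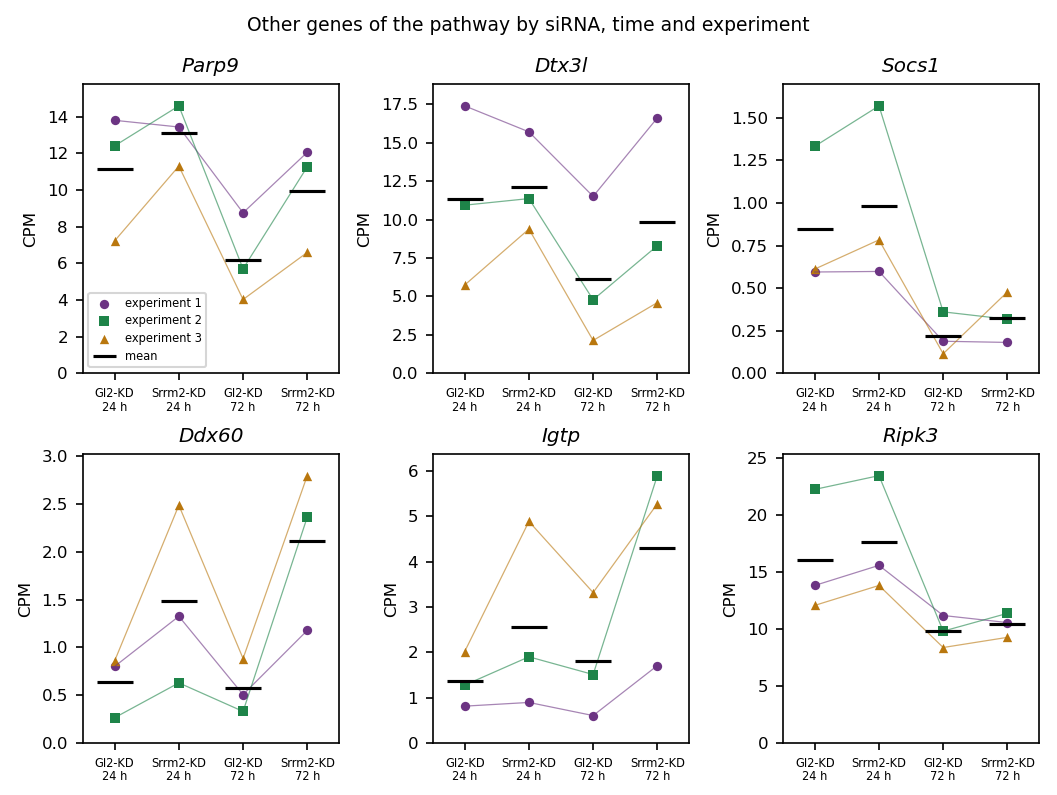
CPM of 6 further genes of the pathway in each library by siRNA and time, with 1 symbol and line for each experiment and a black bar for the mean of 3 libraries; each axis starts at 0. *Parp9*, *Dtx3l* and *Socs1* were lower at 72 h than at 24 h in Gl2-KD in every experiment, and *Ddx60* and *Igtp* were higher in Srrm2-KD than in Gl2-KD in every experiment at both times.

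Of 12 targets and subunits of the NF-κB branch, 7 were at 1 CPM per kb or more and 4 below 0.1, namely *Il6*, *Tnf*, *Cxcl1* and *Ccl2*. Of the 8 that passed the filter, edgeR called 0 in each comparison. Over time in Gl2-KD, 3 of the 8 were higher and 0 lower in 3 of 3 experiments. Among all genes these shares were 20.2% and 16.2%. The median log2 fold change there was -0.001, compared to 0.02 for all genes. Upon Srrm2-KD at 72 h, where edgeR called 0% of all genes, 7 of the 8 had a negative log2 fold change, with a median of -0.17, compared to 10118 of 19410 genes and a median of -0.02. *Nfkb2*, a subunit and target of the pathway, had the smallest p (log2 fold change -0.76 ± 0.17; edgeR, adjusted p = 0.144; DESeq2, adjusted p = 0.00276), at 12.6, 18.7 and 27.9 CPM in Gl2-KD and 8.37, 8.88 and 18.1 CPM in Srrm2-KD, lower in each experiment with overlap. *Icam1* and *Rela*, named by the same rule, had log2 fold changes of -0.15 ± 0.12 and -0.01 ± 0.11 there. Gl2-KD at 72 h enters both this comparison and the one over time. In the latter, *Nfkb2* had a log2 fold change of 0.51 ± 0.17 (edgeR, adjusted p = 0.159). A high value in those libraries raises the change over time and lowers the change upon Srrm2-KD.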

How the data were processed

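PolyA+ RNA of 12 mESC libraries (4 groups, 3 independent experiments) was sequenced as stranded paired 100 bp reads. The authors pseudoaligned the reads with kallisto 0.46.1 and deposited estimated counts per gene (mm10 in the submitters' notes; GENCODE annotation); 33.9 to 43.1% of values in a library were not whole, and all were rounded here. Kallisto divides reads that fit several genes by estimation, so members that share sequence with other genes (*Oas1a*, *Ifitm2* and *Ifit3* most) are uncertain. Symbols, positions and exon lengths came from GENCODE M21 (42156 of 42450 identifiers; the 294 others held 0.175% of counts).

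Genes were filtered with filterByExpr (minimum count 10, minimum total 15), scaled by TMM and fitted with edgeR 4.0.16 in R 4.3.3 (quasi-likelihood test, two-sided, all 12 libraries, experiment number as a block in place of the processing day that the authors used). P-values were Benjamini-Hochberg adjusted over 19410 genes within each of 5 comparisons, and a gene was called at an adjusted p below 0.05. CPM are counts per 1e6 of TMM-scaled totals, SE is the Wald standard error of the fit, and residual degrees of freedom were 6 (5.09 prior). Deviations from group means correlated at 0.281 to 0.747 in the 18 pairs with the same experiment number and at -0.628 to 0.231 in 36 pairs with different numbers, so the numbers pair the libraries. DESeq2 1.42.0, limma-voom (limma 3.58.1), other scalings, filters and blocks, and fits without each library were alternatives. The calculation was also run on simulated counts with known changes. These held no difference between experiments, unlike the libraries here, so they do not test the block.

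The members and lists were chosen with earlier results of these data known. Library values are given for members that were called, the 3 with the smallest p in each comparison and the 3 highest per length. They are also given for *Ddx58*, *Ifih1*, *Mavs*, *Eif2ak2*, *Stat2*, *Irf7* and *Isg15*. Of each other list, the 3 with the smallest p and *Ifnb1* are named. For *Ripk3*, *Ticam1*, *Icam1* and *Rela* among these, only log2 fold changes are given. Some items are not reported here. Counts allow an upper limit of 3 for a library at 0. Promoter letters came from the RefSeq promoter table (GRCm38.p6), which gave no window for 7 members (*Dhx58*, *Oas2*, *Usp18*, *Mx1*, *Mx2*, *Parp14*, *Zbp1*). Shared sequence was counted as distinct 31-base words of GENCODE M21 transcripts.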

Additional observations from a re-analysis of the deposited data

Results flagged for a closer look

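In 2 members, every experiment moved one way in one comparison and the opposite way in its counterpart, and the differences were then tested in the fit across all genes. For *Ifnar2*, a subunit of the interferon receptor, Srrm2-KD was higher than Gl2-KD in 3 of 3 experiments at 24 h (log2 fold change 0.07) and lower in 3 of 3 at 72 h (-0.18). The difference of -0.24 ± 0.25 was not called (edgeR, adjusted p = 1). For *Oasl1*, 72 h was lower than 24 h in 3 of 3 experiments in Gl2-KD (-0.19) and higher in 3 of 3 in Srrm2-KD (0.50). The difference of 0.68 ± 0.37 was not called either (edgeR, adjusted p = 1). Groups of 3 libraries are too small to single out a library that lies far from the others.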

How the results depend on the processing

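Of 494 values of 20 gene results under alternatives, 428 kept their direction and their side of the threshold, 39 lost a call, 27 gained one and 0 changed sign. The 20 results were the 3 members with the smallest p in each comparison, and *Parp9*, *Dtx3l*, *Socs1*, *Ddx60* and *Igtp*. Since they were picked for small p and refitted on the same libraries, their kept signs do not describe the members in general. At 24 h, 0 members were called between the siRNAs under each setting run, and likewise for the difference of the *Srrm2* siRNA effect between the times. Between the siRNAs at 72 h (0 members), DESeq2 called 2 (*Parp14*, *Ifit1*), the 6 libraries alone 1 (*Zbp1*), and a replicate block made of experiment and time together 4 (*Irf1*, *Zbp1*, *Parp14*, *Ifit1*), while leaving out 1 library gave 0. Over time in Gl2-KD (1 member), DESeq2 called 3, and the fit without a replicate block, the 6 libraries alone and a block for each experiment and siRNA (chosen after seeing the data) called 0. Leaving out 1 library or experiment gave 0 to 2, with *Ddx58* added without the Gl2-KD library at 72 h of experiment 1 and *Tlr3* lower in place of *Parp14* without experiment 1. Over time in Srrm2-KD (0 members), DESeq2 called 4, the fit without a filter on low counts 1 (*Ddx58*), and leaving out 1 library 0 to 1 (*Ddx58*, without the Gl2-KD library at 72 h of experiment 3). Apart from these, the pairing changed no call of a member. The cause of these changes was not tested.

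Counts over all genes depended more on the method. Between the siRNAs at 24 h, 0 genes were called by edgeR, 25 by DESeq2, 2 by limma-voom, 1 by the newer edgeR quasi-likelihood option, 1 without a filter and 1 with a stricter filter, and 0 to 10 without 1 library. At 72 h the values in this order were 0, 542, 4, 5, 42 and 1, with 323 from 6 libraries, 724 with experiment and time together as the block and 0 to 55 without 1 library. Over time in Gl2-KD they were 282, 1338, 482, 624, 420 and 476, with 158 from 6 libraries, 0 without the block, 4 with a block for each experiment and siRNA and 0 to 387 without 1 library. There, scaling by library totals gave 111 higher and 158 lower in place of 145 and 137. Over time in Srrm2-KD they were 107, 1061, 259, 279, 212 and 176, with 0 in the other 3 fits, 0 to 93 without 1 library and 135 without experiment 1. DESeq2 gave 498 higher and 563 lower there in place of 37 and 70. For the difference of the effects, edgeR called 0, DESeq2 2 and limma-voom 0. Members under 0.1 CPM per kb had too few counts to show changes under several-fold.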

Other observations

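*Tyk2*, a kinase bound to the interferon receptor, was at 0, 1.21, 1.45 and 1.18 CPM in the 4 libraries of experiment 1 and at 12.1 CPM or more in the 8 libraries of experiments 2 and 3. It was picked out after its values were seen, and the pattern was not tested. *Socs3*, an inhibitor of LIF and interferon signalling, was the highest of the further signalling genes at 36.9 CPM per kb (range over libraries 26.6 to 44.2), and *Socs1* was at 0.204. Of the 48 further interferon-stimulated genes, *Daxx* was the highest at 29.2 CPM per kb and *B2m*, which presents antigen with MHC class I, varied most widely among those above 5 CPM per kb, from 2.68 to 24.3.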
